A study of Saccharomyces cerevisiae with 26 samples.

Results

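The nuclear genes for the subunits of the yeast respiratory chain and of the mitochondrial ATP synthase were followed through a passing exposure to glucose. The genes were taken from a list of 40 by name: 3 NADH dehydrogenases, 4 subunits of complex II (succinate dehydrogenase), 9 of complex III (the ubiquinol to cytochrome c oxidoreductase), 2 cytochromes c, 9 of complex IV (cytochrome c oxidase) and 13 of complex V (the ATP synthase). Of these, 39 had a spot among the 5606 genes on the arrays, and ATP19, for a small subunit of the ATP synthase, had none. The test needed at least 2 values in every time window, which 37 of the 39 met.

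Total RNA of Saccharomyces cerevisiae from a galactose chemostat was hybridised to 26 arrays with 2 colours, 1 array per time. The arrays fell into 7 windows of time after the pulse. After 2 g/l glucose these were 3 to 10 min (4 arrays), 15 to 45 min (4), 90 to 150 min (3) and 180 to 240 min (3). After 0.2 g/l they were 2 to 10 min (5 arrays), 15 to 45 min (4) and 90 to 150 min (3). Per the labels, Cy5 carried the culture at the time named and Cy3 the culture at t=0, so that 0 on the log2 scale is the level on galactose and a positive value is a higher level after the pulse. The labels name neither strain nor genotype. No replicate cultures are named, so an SD below is the spread between time points, and dose, culture and array batch cannot be told apart.

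The respiratory chain passes electrons to oxygen and pumps protons out of the mitochondrial matrix, and the ATP synthase lets them back in to make ATP. Baker's yeast has no proton-pumping complex I: single-protein NADH dehydrogenases hand electrons to ubiquinone instead, and complex II feeds it with electrons from succinate. In this yeast glucose is known to repress many genes of respiration, while galactose represses them less.

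Between 7627 and 9765 of 10752 spots had a value per array, and the median over genes lay between -0.11 and 0.10 on every array. The galactose genes GAL1, GAL2, GAL7 and GAL10, which glucose is known to repress, lay between -4.13 and -2.26 on the 4 arrays of 15 to 45 min after 2 g/l. After 0.2 g/l they lay between -2.80 and -0.97 at 15 and 20 min. By 30 and 45 min after 0.2 g/l they were between -0.09 and 0.37. The arrays of 45, 30 and 90 min after 0.2 g/l were the least like the others of their window, with correlations to the mean of the others of 0.12, 0.36 and 0.44 over genes. Values on several arrays also went with the length of the genes, as described below.

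From 15 to 45 min after 2 g/l, genes of every complex were lower, and those of complex II by the most. Of the 37 members tested, 25 fell and 0 rose (limma, adjusted p under 0.05), against 22.1% of all 5372 genes tested called lower and 21.7% called higher. The median of the members was -0.47, against -0.03 for all genes. By complex, 4 of 4 subunits of complex II fell, with a median of -1.31. In complex V, 9 of 11 fell, with a median of -0.48, and in complex IV 6 of 9 fell, with a median of -0.39. In complex III, 4 of 8 fell, with a median of -0.36, 1 of the 2 cytochromes c fell, and 1 of the 3 NADH dehydrogenases fell. The called cytochrome c, CYC1, averaged -0.60 ± 0.43 (SD, n = 4), and its call ended without the array of 15 or 20 min. The other, CYC7, averaged -0.64 ± 0.37 (SD, n = 4, limma adjusted p = 0.117), with every array below 0. Of the 25 calls, 18 held without each single array of the window, and the count was 22 without the arrays of 20 and 210 min.

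Complex II had the lowest median of the 5 groups (the cytochromes c aside) on each of these 4 arrays. SDH1 and SDH4 had the lowest means among the tested members. SDH1, for the flavoprotein that takes electrons from succinate, had log2 ratios of -2.33, -2.37, -1.34 and -1.18 at 15, 20, 30 and 45 min. Its mean was -1.80 ± 0.63 (SD, n = 4, limma adjusted p = 0.000134), and every array lay below 0. SDH4, for a membrane anchor, was at -1.92, -1.92, -1.56 and -1.10 on the same arrays, with a mean of -1.62 ± 0.39 (SD, n = 4, limma adjusted p = 9.52e-06). SDH3, for the other membrane anchor, which carries heme, was at -1.28, -1.34, -0.84 and -0.53, with a mean of -0.996 ± 0.38 (SD, n = 4). SDH2, for the iron-sulfur subunit, was at -1.31, -0.94, -0.67 and -0.21, with a mean of -0.78 ± 0.46 (SD, n = 4). All 4 genes were thus lowest at 15 or 20 min and nearer to 0 at 45 min, and each of the 4 calls held without any single array. SDH9, a close paralogue of SDH1, was lower as well, at -1.52 ± 0.37 (SD, n = 4), and cross-hybridisation between the 2 spots was not tested.

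**Figure D1:**
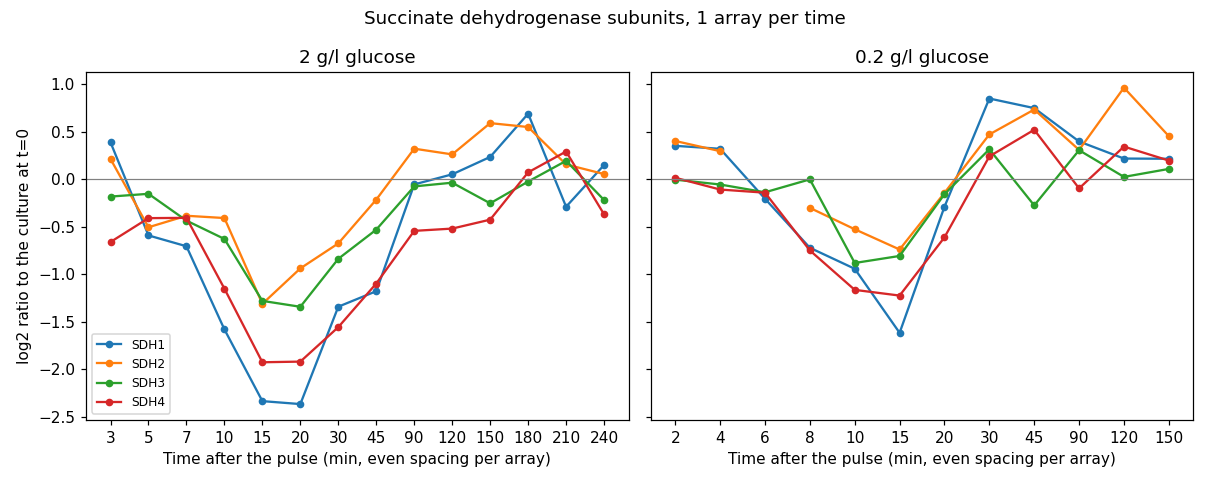
Log2 ratio to the culture at t=0 (vertical axis) of the 4 succinate dehydrogenase genes on each array, by time after 2 g/l glucose (left) and 0.2 g/l glucose (right); each point is 1 array and times are evenly spaced. After 2 g/l SDH1 reached -2.37 at 20 min and was above 0 at 120 min, while after 0.2 g/l it was lowest at 15 min, at -1.62, and was at 0.85 at 30 min.

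Among the ATP synthase genes, those for the catalytic head and its stalk fell together with peripheral ones. ATP14, for subunit h of the peripheral stalk, was at -1.08, -1.15, -1.09 and -0.75, with a mean of -1.02 ± 0.18 (SD, n = 4, limma adjusted p = 1.93e-06). ATP15, for the epsilon subunit of the rotor, was at -0.76, -2.07, -0.73 and -0.64, so that its mean of -1.05 ± 0.69 rests in part on the array of 20 min. ATP20, for subunit g of the membrane part, was at -0.73, -1.37, -0.68 and -0.79, again lowest at 20 min. The catalytic beta subunit gene, ATP2, had a mean of -0.76 ± 0.16 and that of the gamma subunit, ATP3, one of -0.57 ± 0.10 (SD, n = 4 each). ATP1, for the alpha subunit, was lower by less, at -0.34 ± 0.15 (SD, n = 4, limma adjusted p = 0.0466), and lost its call without any 1 of the 4 arrays. ATP4 and ATP7, for subunits b and d of the peripheral stalk, averaged -0.43 ± 0.10 and -0.48 ± 0.23, and ATP16, for the delta subunit of the rotor, -0.44 ± 0.16 (SD, n = 4 each). All 4 arrays lay below 0 for each of these 3 genes, and the call of ATP7 ended without the array of 20 min. ATP18 was at 0.20, -1.13, 0.00 and -0.46, on both sides of 0 and without a call (limma adjusted p = 0.0777). ATP5, for the subunit that joins the head to the peripheral stalk, was the exception to the direction of the complex, with -0.12, 0.07, -0.24 and 0.28 and a mean of 0.00 ± 0.23 (SD, n = 4, limma adjusted p = 0.999). Its arrays lay on both sides of 0.

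In complexes III and IV the medians, -0.36 and -0.39, lay nearer to 0 than those of complexes II and V, -1.31 and -0.48. QCR10, for a small subunit of complex III, was at -0.91, -1.30, -0.58 and -0.51, with a mean of -0.82 ± 0.36 (SD, n = 4, limma adjusted p = 0.000138). QCR2, for a core subunit, fell evenly, between -0.50 and -0.33, whereas COR1, for the other core subunit, was at -0.14 ± 0.09 (SD, n = 4, limma adjusted p = 0.463). CYT1 and RIP1, for cytochrome c1 and the Rieske iron-sulfur protein, averaged -0.47 ± 0.38 and -0.39 ± 0.33 (SD, n = 4 each), and both calls ended without the array of 15 min. In complex III the highest mean was that of QCR9, for a small subunit, at 0.10 ± 0.70 (SD, n = 4), with values between -0.81 and 0.67. In complex IV, COX7, for a small subunit, was the lowest at -0.70 ± 0.30, followed by COX8 at -0.64 ± 0.31 and COX5A at -0.55 ± 0.27 (SD, n = 4 each), and COX12 was the highest at -0.17 ± 0.38 (SD, n = 4). COX13, COX4 and COX6, for further nuclear subunits of the oxidase, averaged -0.50 ± 0.25, -0.39 ± 0.27 and -0.38 ± 0.21 (SD, n = 4 each), with every array below 0, and the call of COX6 ended without the array of 20 min. COX9 was at -0.07, -0.82, -0.06 and -0.16, so that the array of 20 min alone lay far below 0, and it was not called.

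The 3 NADH dehydrogenase genes did not move alike. NDI1, for the enzyme that faces the matrix, was at -1.23, -0.82, -0.80 and -0.58, with a mean of -0.85 ± 0.27 (SD, n = 4, limma adjusted p = 0.0259), and its call ended without the array of 15, 20 or 30 min. NDE1, for one of the enzymes that face the cytosol side of the inner membrane, lay between -0.43 and 0.01. NDE2, for the other one, was at 0.78, -0.24, 0.53 and 0.31, with a mean of 0.34 ± 0.44 (SD, n = 4, limma adjusted p = 0.348).

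**Figure D2:**
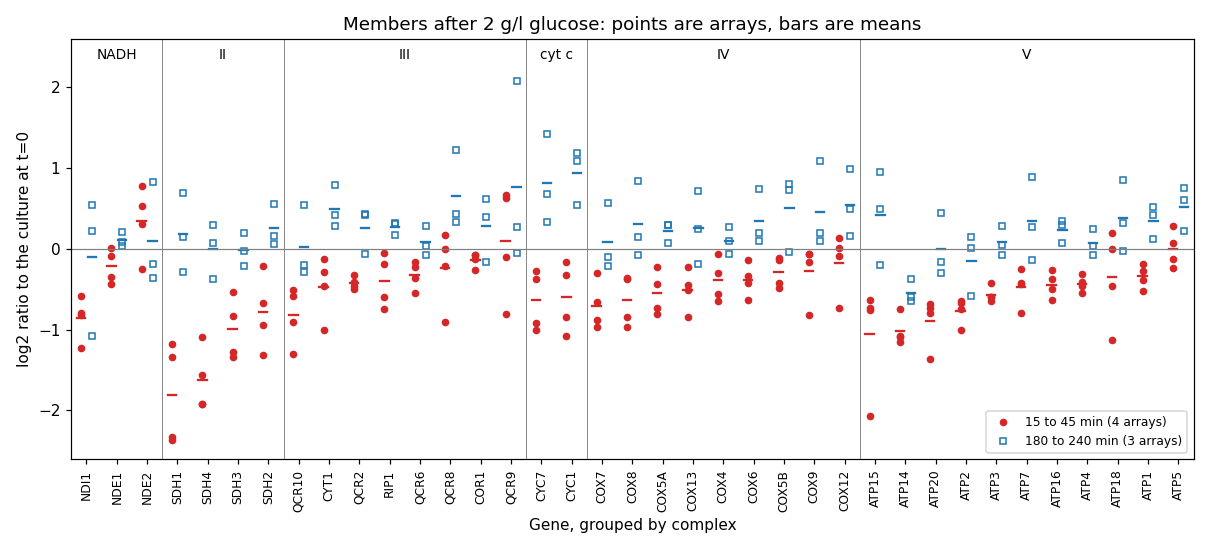
Log2 ratio to the culture at t=0 of each tested member (horizontal axis, grouped by complex) on the 4 arrays of 15 to 45 min (red circles) and the 3 arrays of 180 to 240 min (blue squares) after 2 g/l glucose; bars are the means. SDH1 and SDH4 had the lowest red means, -1.80 and -1.62, and ATP5, QCR9 and NDE2 the highest, at 0.00, 0.10 and 0.34.

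In the first 10 min after 2 g/l some members were lower and others were not. In the window of 3 to 10 min, 6 of the 37 members fell and 4 rose (limma), against 20.8% and 16.8% of all genes. Neither share of the members was larger than that of all genes, and the medians were -0.03 and -0.04. Complex V had a median of 0.15, with ATP1 at 0.47 ± 0.27 (SD, n = 3), ATP18, for a small membrane subunit, at 0.43 ± 0.24 and ATP5 at 0.36 ± 0.21 (SD, n = 4 each) called higher, together with COX9 of complex IV at 0.42 ± 0.19 (SD, n = 4). Complex II had a median of -0.48, and SDH1 already lay at -1.58 at 10 min, against 0.39 at 3 min. NDI1 was at -0.08, -0.77, -1.16 and -1.53 at 3, 5, 7 and 10 min and so had its lowest value here, before the window of 15 to 45 min. SDH4, QCR9, QCR10, COX5B and ATP14 were also called lower. Of these 10 calls only that of ATP14, at -0.50 ± 0.16 (SD, n = 4, limma adjusted p = 0.00263), held without each single array.

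Set against the window of 3 to 10 min, the values of 15 to 45 min were lower for 9 members and higher for 0, against 1.6% and 0.503% of all genes. They were 6 subunits of complex V and 3 of complex IV. For none of these 9 called genes did the arrays of the 2 windows overlap, which was not counted over all genes. The genes were called on these same arrays, so the lack of overlap adds no separate support. ATP15 differed by -1.02 (limma adjusted p = 0.0342), with means of -1.05 ± 0.69 at 15 to 45 min and -0.03 ± 0.18 at 3 to 10 min (SD, n = 4 each). ATP3 differed by -0.72 (limma adjusted p = 0.00931), with -0.57 ± 0.10 at 15 to 45 min and 0.15 ± 0.22 at 3 to 10 min (SD, n = 4 each), and was the only one of the 9 called without each single array. SDH1 differed by -1.18 without a call, and its arrays of 3 to 10 min lay between -1.58 and 0.39. Without the arrays of 20 and 210 min the count was 1 member.

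**Figure D3:**
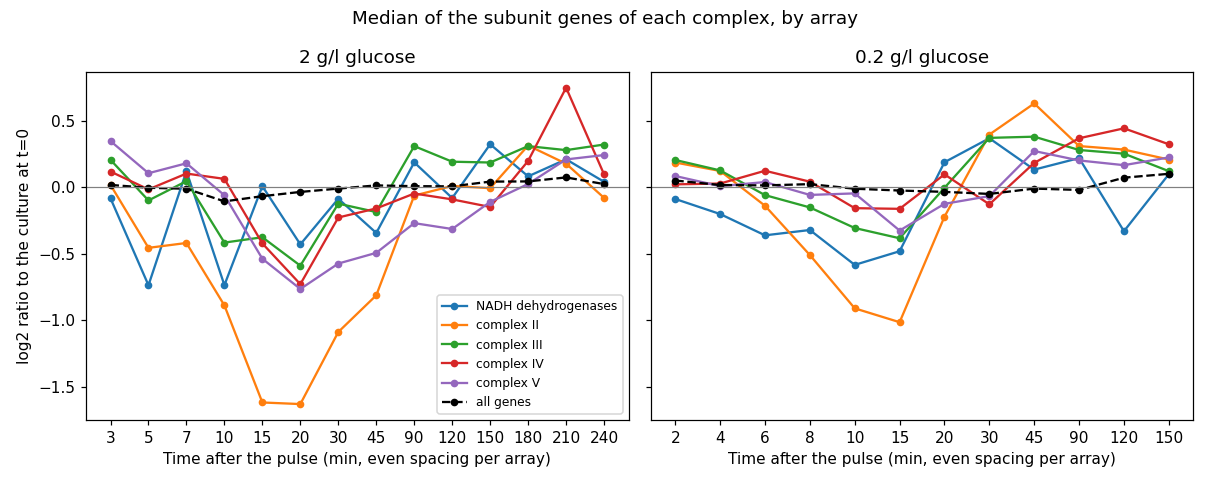
Median log2 ratio to the culture at t=0 over the members of each complex, and over all genes (dashed), on each array by time after 2 g/l (left) and 0.2 g/l glucose (right). Of the 5 groups drawn, complex II went lowest after both pulses, to -1.63 at 20 min after 2 g/l and -1.01 at 15 min after 0.2 g/l, and complex IV stood at 0.75 on the array of 210 min after 2 g/l.

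Over the 14 arrays after 2 g/l, 33 of the 39 members with a spot had their lowest value between 15 and 45 min, 20 of them on the array of 20 min and 8 on that of 15 min. Of the 39, 26 had their highest value between 180 and 240 min. The times of the lowest and highest values were not counted over all genes, so a trait of the members cannot be told from one of the arrays. From 90 to 150 min, 2 members were called lower and 2 higher (limma), against 5.51% and 9.03% of all genes. COX7 at -0.51 ± 0.31 and ATP14 at -0.72 ± 0.21 were the lower ones, and COR1 at 0.50 ± 0.08 and CYC1 at 0.79 ± 0.39 the higher ones (SD, n = 3 each). Of these only the call of ATP14 held without each single array, and COX7 was at -0.33 without that of 150 min. From 180 to 240 min, 1 member was lower and 3 were higher, against 2.42% and 5.96% of all genes, and the median of the members was 0.26, against 0.05 for all genes. The higher ones were CYC1 at 0.94 ± 0.35, QCR8 at 0.66 ± 0.49 and ATP5 at 0.52 ± 0.28, and ATP14 was lower at -0.54 ± 0.15 (SD, n = 3 each). None of these 4 held without each single array, and the count was 0 (limma, with 7 members at an unadjusted p under 0.05) without the arrays of 20 and 210 min.

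ATP14 lay below 0 on all 14 arrays after 2 g/l. Its values lay between -1.15 at 20 min and -0.34 at 5 min, and at 240 min it was at -0.60. After 0.2 g/l the gene lay between -0.71 and 0.18. The labels do not say whether 1 RNA extract of t=0 served all arrays of a pulse, and an offset of such an extract would move every array alike.

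The values of 15 to 45 min were lower than those of 180 to 240 min after the same pulse for 29 of the 37 members, and higher for 0 (limma), against 15.7% and 12% of all genes. The median difference was -0.74. All 4 subunits of complex II, both cytochromes c, 8 of 9 subunits of complex IV, 10 of 11 of complex V and 5 of 8 of complex III were called, and none of the 3 NADH dehydrogenases. Among these 29 called genes the arrays of the 2 windows did not overlap for 26, which was not counted over all genes. Since the same arrays gave the calls, this count adds no separate support. An offset of the t=0 extract would cancel here only if 1 extract served all arrays of the pulse, which the labels do not say. SDH1 differed by -1.99 (limma adjusted p = 0.00518), with -1.80 ± 0.63 (SD, n = 4) at 15 to 45 min and 0.18 ± 0.49 (SD, n = 3) at 180 to 240 min. CYC1, for the major cytochrome c, differed by -1.54 (limma adjusted p = 0.00072), with -0.60 ± 0.43 (SD, n = 4) and 0.94 ± 0.35 (SD, n = 3) in the same windows. ATP15 differed by -1.47 and CYT1 by -0.97, while ATP14, the uncalled gene of complex V, differed by -0.48. Of the 29 calls, 14 held without each single array and 15 did not. Without the arrays of 20 and 210 min the count was 10, with a median difference of -0.57.

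On several arrays the values went with gene length, and those of 20 and 210 min after 2 g/l, which held the lowest value of 20 members and the 0.75 median of complex IV, were looked at further. Each array was set against the mean of the arrays just before and after it, and length was taken from the start to the stop codon, introns included. On the array of 210 min this deviation had a Spearman rho with length of -0.43 over 5420 genes and of -0.68 over 38 members. The 24 members of up to 600 bases deviated by a median of 0.63 there, against -0.18 for the 14 longer ones. On the array of 20 min rho was 0.10 over 5536 genes and 0.55 over 38 members, with a median deviation of -0.41 for the 24 short members and 0.05 for the 14 longer ones. Other arrays had rho of like size: over all genes it was 0.30 at 180 min after 2 g/l and -0.25 and 0.27 at 8 and 10 min after 0.2 g/l, and over members -0.59 at 15 min after 2 g/l and 0.61 and -0.56 at 30 and 120 min after 0.2 g/l. The array of 210 min had the largest rho in both sets, while over all genes that of 20 min did not stand apart. Neighbouring arrays enter each other's deviation, and these are descriptions over genes that share an array. Most subunits of complexes IV and V are short, and what share of their values at these times goes with length was not tested. SDH1, with 1923 bases the longest of complex II, was at -2.33 on the array of 15 min as well. On that array the longer members deviated by a median of -0.28 and the short ones by 0.08. What share of the SDH1 values goes with length was not tested either.

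**Figure D4:**
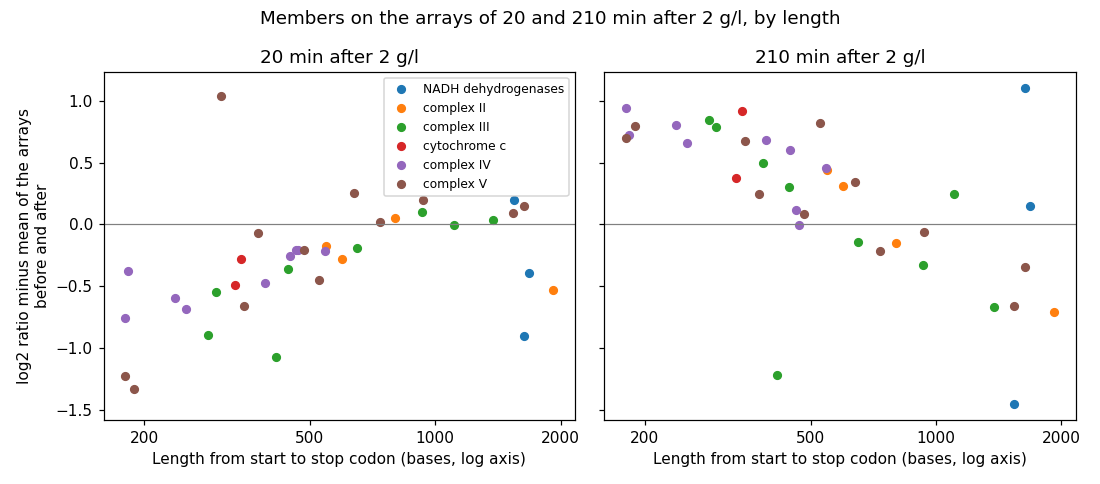
Deviation of each member on the arrays of 20 min (left) and 210 min (right) after 2 g/l from the mean of the arrays before and after (vertical axis, log2 ratio) against its length from start to stop codon (horizontal axis, log scale, bases), coloured by complex. Short members lie mostly below 0 at 20 min (median -0.41) and mostly above 0 at 210 min (median 0.63).

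After 0.2 g/l the dip was shorter, and over the windows few members passed the test. From 2 to 10 min 2 members were called lower and 0 higher (limma), against 11.7% and 18.1% of all genes: ATP14 at -0.30 ± 0.31 and NDE2 at -0.72 ± 0.86 (SD, n = 5 each). The value of NDE2 rests on the array of 4 min, at -2.24, where the other 4 arrays lay between -0.58 and -0.11. Without that array it was at -0.35, and neither of these 2 calls held without each single array. From 15 to 45 min 1 member was lower and 2 were higher, against 24.4% and 15.1% of all genes. Those were CYC7, for the minor cytochrome c, at -1.08 ± 1.43, CYC1 at 0.71 ± 0.26 and QCR8, for a small subunit of complex III, at 0.45 ± 0.40 (SD, n = 4 each). Only the call of CYC1 held without each single array: CYC7 lost its call without the array of 20 or 30 min, with -0.50 without that of 30 min, and QCR8 without that of 20, 30 or 45 min. From 90 to 150 min 5 members were higher and 0 lower, against 3.61% and 3.93% of all genes: CYC1 at 1.07 ± 0.52, ATP5 at 0.70 ± 0.18, COX9 at 0.60 ± 0.08, COX4 at 0.54 ± 0.08 and COX6 at 0.49 ± 0.10 (SD, n = 3 each). None of these 5 held without each single array. Of the 37 members tested, 6 had means below 0 in this window without a call, the lowest being COX5B at -0.86 and NDI1 at -0.71. COX5B had -1.76 at 90 min, no value at 120 min and 0.04 at 150 min, so its mean rests on 1 low array. NDI1 had 0.10, -0.98 and -1.25 at the same times.

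On single arrays complex II moved further than these window means show. Its median was -0.51 at 8 min, -0.91 at 10 min, -1.01 at 15 min, -0.22 at 20 min, 0.40 at 30 min and 0.63 at 45 min. SDH1 had -0.94, -1.62, -0.29, 0.85 and 0.75 on the arrays of 10, 15, 20, 30 and 45 min. SDH4 had -1.16, -1.22, -0.61, 0.24 and 0.52 on the same arrays. The window of 15 to 45 min thus held values on both sides of 0 for these genes, and its mean for SDH1 was -0.08 ± 1.15 (SD, n = 4). Of the 39 members, 16 had their lowest value at 15 min and 8 at 10 min, which was not counted over all genes. The difference of the window of 15 to 45 min from that of 2 to 10 min called 0 members (limma, 2 at an unadjusted p under 0.05), against 6.22% of all genes called in either direction. That from the window of 90 to 150 min also called 0 (limma, 9 at an unadjusted p under 0.05), against 1.9% of all genes called in either direction, and 7 without the arrays of 30 and 45 min.

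The 2 pulses were set against each other in windows matched by time after the pulse. At 30 and 45 min the galactose genes lay near 0 after 0.2 g/l but not after 2 g/l, as given above. In the first 10 min they differed for 0 members (limma, 5 at an unadjusted p under 0.05), against 0.484% of all genes called in either direction. From 15 to 45 min, 17 members were lower after 2 g/l than after 0.2 g/l and 0 were higher, against 6.25% and 8.53% of all genes. The median difference of the members was -0.54, against 0.13 for all genes. The 17 were all 4 subunits of complex II, 5 of complex V, 4 of complex IV, 3 of complex III and CYC1. Among these called genes the arrays of the 2 pulses did not overlap for 10, which was not counted over all genes. Here too the same arrays gave the calls, so this count adds no separate support.

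CYC1 was at -0.84, -1.07, -0.32 and -0.16 after 2 g/l at 15, 20, 30 and 45 min, and at 0.54, 0.48, 0.73 and 1.07 after 0.2 g/l at the same times. Every array after 2 g/l lay below every array after 0.2 g/l, and the difference was -1.31 (limma adjusted p = 0.00377). ATP20 was between -1.37 and -0.68 after 2 g/l and between -0.22 and 0.33 after 0.2 g/l, a difference of -1.05 (limma adjusted p = 0.00271). For SDH1 the difference was -1.73 (limma adjusted p = 0.0155), but its arrays overlapped, since the array of 15 min after 0.2 g/l was at -1.62. For SDH4 it was -1.36 (limma adjusted p = 0.0075), also with overlap.

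Only 6 of these 17 calls held without each single array: SDH4, CYC1, COX5A, ATP3, ATP14 and ATP20. The count was 7 without the arrays of 20 and 210 min and 4 without those of 30 and 45 min after 0.2 g/l. It was 0 (limma, 22 members at an unadjusted p under 0.05) in a fit of these 8 arrays alone and 0 (20 at an unadjusted p under 0.05) with the time as a block, and both fits called 0 of all genes. From 90 to 150 min, COX4 and ATP14, 2 members, were lower after 2 g/l than after 0.2 g/l and 0 were higher, against 1.9% and 1.14% of all genes. COX4 averaged -0.09 ± 0.10 after 2 g/l and 0.54 ± 0.08 after 0.2 g/l, and ATP14 -0.72 ± 0.21 after 2 g/l and 0.05 ± 0.04 after 0.2 g/l (SD, n = 3 each). Both calls ended without any 1 of the 6 arrays.

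The isozyme pairs are genes for alternative forms of the same subunit. CYC7 and COX5B encode forms of cytochrome c and of a complex IV subunit that are known to be favoured at low oxygen, and CYC1 and COX5A the forms of aerobic growth. Each pair was compared within an array, over the arrays up to 45 min. The test takes the arrays as independent, though they are successive times of a pulse. An offset of a shared t=0 extract would move all of them. After 0.2 g/l CYC7 was lower relative to CYC1 on 9 of 9 arrays, by a mean of -0.94 (exact sign-flip test, two-sided, p = 0.00391, the smallest it allows, adjusted p = 0.0234 over 6 tests). The difference was largest at 30 min, when CYC7 was at -2.82 and CYC1 at 0.73. After 2 g/l the mean difference was -0.21, lower on 6 of 8 arrays (exact test, adjusted p = 0.082).

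NDE2 was lower relative to NDE1 on 7 of 7 arrays after 0.2 g/l, by a mean of -0.45 (exact sign-flip test, p = 0.0156, the smallest it allows, adjusted p = 0.0469). The array of 4 min held -2.14, and without it the mean was -0.17 (exact sign-flip test, adjusted p = 0.0938). The call of NDE2 minus NDE1 ended in 7 of 9 runs that each left out 1 array. After 2 g/l the mean difference was 0.12 (exact test, adjusted p = 0.547). COX5B was lower relative to COX5A by a mean of -0.45 after 0.2 g/l, on 7 of 9 arrays (exact test, adjusted p = 0.082), and by -0.28 after 2 g/l, on 4 of 8 (exact test, adjusted p = 0.291). In the first 10 min after 2 g/l COX5B was at -0.83, -0.23, -0.97 and -1.19, below COX5A on each array, and at 15 to 45 min it lay above COX5A on each. When the pair differences were set against those of the last window of the same pulse in place of 0, both calls ended. CYC7 minus CYC1 was then -0.10 after 0.2 g/l (exact permutation test, adjusted p = 0.923) and NDE2 minus NDE1 -0.31 (exact permutation test, adjusted p = 0.9). In that last window after 0.2 g/l the pairs themselves averaged -0.84 (n = 3) and -0.14 (n = 2).

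**Figure D5:**
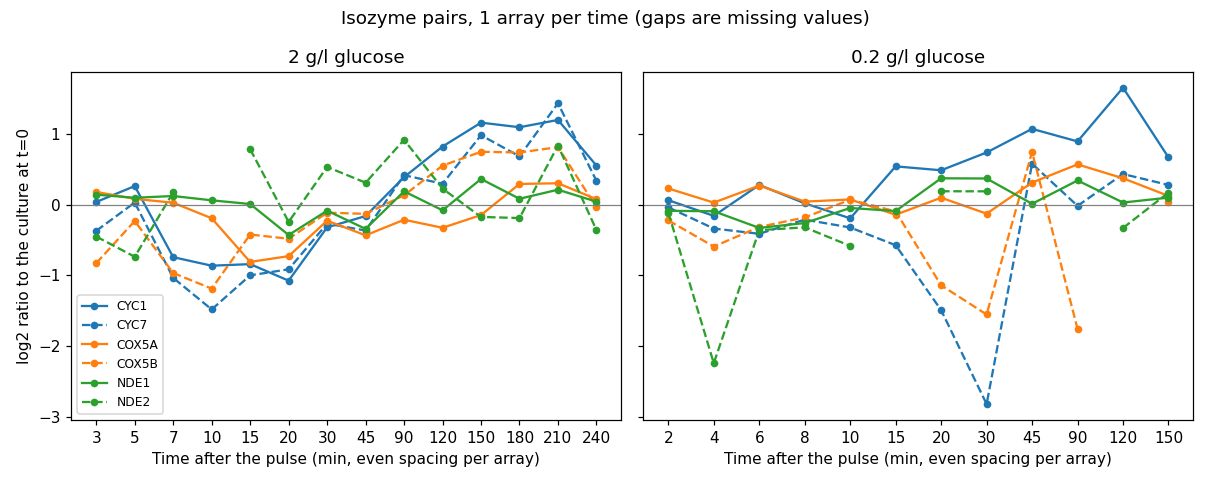
Log2 ratio to the culture at t=0 of the 3 isozyme pairs on each array, by time after 2 g/l (left) and 0.2 g/l glucose (right); solid lines are CYC1, COX5A and NDE1, dashed lines of the same colour CYC7, COX5B and NDE2, and gaps are missing values. After 0.2 g/l CYC7 lay below CYC1 on each array up to 45 min and reached -2.82 at 30 min.

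The members of a complex differed in how closely they followed each other over the arrays. Pairs of complex II genes had a median Pearson r of 0.88 over up to 26 arrays, between 0.81 and 0.92 over the 6 pairs. In complex IV the median over 36 pairs was 0.72, in complex V 0.50 over 66 pairs, in complex III 0.44 over 35 pairs and among the NADH dehydrogenases 0.23 over 3 pairs. Between complexes, the median was 0.72 for II with III, 0.66 for II with IV and 0.55 for II with V. It was 0.46 for III with IV, 0.39 for III with V and 0.57 for IV with V. Genes of complexes III and V thus did not follow their own complex more closely than every other. The arrays of a pulse share a culture and a t=0 state, and spots of 1 array share its labelling, so these values are a description.

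QCR7, for a subunit of complex III, and ATP17, for subunit f of the ATP synthase, had too few values between 3 and 10 min after 2 g/l to be tested. ATP17 lay below 0 on each of the 21 arrays where it had a value, between -2.86 and -0.31. QCR7 had values on 20 arrays and lay between -2.51 and 0.23.

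Genes that build, feed or regulate these complexes were lower from 15 to 45 min after 2 g/l as well. Of 84 such genes listed, 80 were tested, and 47 fell and 0 rose (limma), with a median of -0.60, beside the 22.1% of all genes lower and 21.7% higher in this window and their median of -0.03. Of the 4 assembly factors of complex II, 3 fell, among them SDH7 at -1.77 ± 0.63 and SDH5, which attaches the flavin to SDH1's product, at -1.06 ± 0.23 (SD, n = 4 each). Of 23 genes for the assembly or translation of complex IV, 16 fell, with COX17, for a copper chaperone, at -1.42 ± 0.59 and COX23 at -1.18 ± 0.13 (SD, n = 4 each). Of 12 assembly and expression factors of complex V, 7 fell, with ATP11, for a chaperone of the beta subunit, at -0.89 ± 0.14 (SD, n = 4). Of 9 factors of complex III, 2 fell, a share close to that of all genes, with CBP4 at -1.34 ± 0.29 (SD, n = 4).

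Of 4 genes for inhibitors of the ATP synthase, their stabilisers and a further subunit of its dimer, 3 fell, with STF1 at -1.77 ± 0.54 and STF2 at -1.39 ± 0.33 (SD, n = 4 each). In ubiquinone synthesis 6 of 10 fell, with CAT5, for a hydroxylase, at -1.16 ± 0.24 and COQ3, for a methyltransferase, at -0.93 ± 0.11 (SD, n = 4 each). Among the genes for carriers of ADP, ATP, phosphate and dicarboxylates, and for porin, 3 of 6 fell, with PET9, for the major ADP/ATP carrier, at -0.59 ± 0.10 and POR1, for porin, at -0.56 ± 0.13 (SD, n = 4 each). Of 4 other mitochondrial oxidoreductases listed beside the chain, 3 fell, with CYB2, which oxidises lactate, at -1.67 ± 0.91 and GUT2, which oxidises glycerol 3-phosphate, at -1.51 ± 0.06 (SD, n = 4 each).

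HAP4, for the activating subunit of the factor that drives many genes of respiration, was low early after both pulses. From 3 to 10 min after 2 g/l it was at -0.95 ± 0.22 (SD, n = 4, limma adjusted p = 5.44e-05), and from 2 to 10 min after 0.2 g/l at -0.87 ± 0.27 (SD, n = 5, limma adjusted p = 3.6e-05). From 15 to 45 min after 2 g/l it was at -0.76 ± 0.12 (SD, n = 4), and 3 of the 5 HAP genes tested fell. From 15 to 45 min after 0.2 g/l, 22 of the 80 genes around the complexes fell and 0 rose, against 24.4% and 15.1% of all genes, so that the share that fell was close to that of all genes. GUT2 at -0.85 ± 0.88 and SDH5 at -0.46 ± 0.26 (SD, n = 4 and n = 3) were among them. From 180 to 240 min after 2 g/l, 4 of the 80 were lower and 6 higher, against 2.42% and 5.96% of all genes, with CBP4 at 0.96 ± 0.59 (SD, n = 3) among the higher ones.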

How the data were processed

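RNA of a galactose chemostat was compared with its t=0 state on 26 arrays. The deposited values are log2 ratios per spot. Per the labels, Cy3 held the t=0 culture and Cy5 the time after the pulse. The direction of the ratio was taken from this, while no label or header names the authors' scaling or background correction. Whether arrays of a pulse shared 1 t=0 extract is not given either. The unit of replication is the time point, so p-values measure the spread between times.

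Of 10752 spots, 6834 had a gene (5606 genes, all matched to the RefSeq gene table). Spots of a gene were averaged. A gene needed 2 or more values in each window, which left 5372 to be fitted with limma 3.58.1 (R 4.3.3), with 7 window means over all 26 arrays, eBayes and Benjamini-Hochberg adjustment over all of them, at a threshold of 0.05. There were 14 comparisons. Isozyme pairs were compared with an exact sign-flip permutation test, adjusted over 6 tests. The fit was tested on simulated data. Tables and figures used Python 3.11.15, pandas 2.3.3, numpy 2.4.6 and matplotlib 3.10.9.

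Every member could be named. The text gives the lowest and highest member of each complex, those against its direction and the isozyme pairs, and up to 2 called genes per list around the complexes. The members, lists and windows were chosen with earlier results of these data known, and the arrays of 20, 210, 30 and 45 min were left out as alternatives added after seeing the data. The number of arrays limits the precision.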

Additional observations from a re-analysis of the deposited data

Results flagged for a closer look

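In 12 of 144 groups of 4 or 5 arrays, 1 array lay far from the others for a member. Chance alone marks about 1 in 20 such groups if the values are independent and without a trend. These are successive times, and members share arrays, so the count was not tested against that rate. NDE2, for a cytosol-facing NADH dehydrogenase, was at -2.24 at 4 min after 0.2 g/l, where the other arrays of the window lay between -0.58 and -0.11. On the array of 20 min after 2 g/l, 3 small subunits lay lower than in the rest of their window: ATP15 at -2.07, ATP20 at -1.37 and COX9 at -0.82. On that of 3 min after 2 g/l, QCR6 at 0.59 and SDH2 at 0.22 lay higher. On that of 5 min COX4 lay lower, at -0.017, and on that of 10 min ATP15, at -0.29. On the array of 10 min after 0.2 g/l, SDH3 at -0.88 and COX6 at -0.16 lay lower, and on that of 45 min COX8 at 0.17 and ATP4 at 0.30 lay higher.

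For 19 differences the value after 2 g/l was lower than that after 0.2 g/l in the same window by limma's test of the difference. From 15 to 45 min, in complex II, these were SDH1 (-1.73), SDH4 (-1.36), SDH2 (-0.87) and SDH3 (-0.77). In complex III and for cytochrome c they were CYC1 (-1.31), QCR10 (-0.68), CYT1 (-0.63) and QCR2 (-0.54). In complex IV they were COX5A (-0.58), COX4 (-0.58), COX8 (-0.54) and COX13 (-0.53). In complex V they were ATP20 (-1.05), ATP15 (-0.87), ATP14 (-0.84), ATP2 (-0.74) and ATP3 (-0.60). From 90 to 150 min they were ATP14 (-0.77) and COX4 (-0.63). Dose, culture and array batch cannot be told apart in any of them.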

How the results depend on the processing

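The count of 25 members lower from 15 to 45 min after 2 g/l stayed within 1.5 times under each alternative run (19 to 28). Of 109 counts under alternatives that left out no single array, 74 stayed within 1.5 times. With quantile normalization the count was 8 from 180 to 240 min after 2 g/l, 14 from 90 to 150 min after 0.2 g/l, 13 for the difference between pulses from 90 to 150 min, 3 for 15 to 45 min against 3 to 10 min after 2 g/l and 4 for 15 to 45 min against 90 to 150 min after 0.2 g/l. In a limma fit of only the arrays compared it was 2 from 3 to 10 min and 8 from 90 to 150 min after 2 g/l, and 1 for the difference between pulses from 90 to 150 min. It was 0 in that fit from 180 to 240 min after 2 g/l (9 members at an unadjusted p under 0.05), from 15 to 45 min and 90 to 150 min after 0.2 g/l (3 and 21), for the difference between pulses from 15 to 45 min (22) and for 15 to 45 min against 3 to 10 min after 2 g/l (24). Without arrays on which over 5% of genes lacked a value, where 0.2 g/l kept only the array of 20 min from 15 to 45 min and its spread is assumed to be that of the other windows, the counts were 6 and 7 in the first and last windows after 2 g/l, 4, 1 and 9 in the windows after 0.2 g/l, 2 and 6 for the differences between pulses from 15 to 45 and 90 to 150 min, and 14 and 1 for 15 to 45 min against the first window after 2 g/l and the last after 0.2 g/l. With values on all arrays required, the count was 1 from 2 to 10 min after 0.2 g/l and 1 for 15 to 45 min against 90 to 150 min after it. With no filter it was 4 and 5 in the first and second windows after 0.2 g/l, and with 1 spot per gene 1 for the difference between pulses from 90 to 150 min. With the time as a block, limma called 0 members for the differences between pulses from 15 to 45 min (20 at an unadjusted p under 0.05) and from 90 to 150 min (12), and this could not be fitted for the first windows, which share only the time of 10 min. Without the arrays of 20 and 210 min the count was 0 from 180 to 240 min (7 at an unadjusted p under 0.05), 7 for the difference between pulses from 15 to 45 min, and 1 and 10 for 15 to 45 min against the first and last windows after 2 g/l. Without those of 30 and 45 min after 0.2 g/l it was 4 for that difference between pulses and 7 for 15 to 45 min against 90 to 150 min.

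Leaving out each array in turn gave 2 to 8, 19 to 24, 1 to 2 and 0 to 3 members in the 4 windows after 2 g/l and 0 to 2, 1 to 5 and 2 to 3 in the 3 after 0.2 g/l. For the differences between pulses it gave 7 to 23 from 15 to 45 min and 0 from 90 to 150 min (10 to 13 at an unadjusted p under 0.05). For 15 to 45 min after 2 g/l it gave 1 to 8 against the first and 18 to 29 against the last window, and after 0.2 g/l 0 to 1 against the first and 0 to 4 against the last. For the isozymes after 0.2 g/l it gave -1.04 to -0.61 for CYC7 minus CYC1, -0.52 to -0.17 for NDE2 minus NDE1 and -0.56 to -0.33 for COX5B minus COX5A, with highest adjusted p of 0.0469, 0.0938 and 0.152 (exact tests). Against the last window COX5B minus COX5A was 0.75 after 0.2 g/l, a change of sign, since COX5B was at -1.76 at 90 min, and CYC7 minus CYC1 was -0.10 and NDE2 minus NDE1 -0.31. The cause of the other changes was not tested. The replicate numbers only name arrays in accession order, so the time was the block used for pairing. Signal over background is not analysed here.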
